A study of Canis lupus familiaris with 5 samples.

Results

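The collagen chain genes of canine cephalic vein were described in single-nucleus RNA sequencing libraries of control, distended and grafted vein. They were taken as every feature whose name, once a trailing number is stripped, is COL, a number, A and a number. This rule gave 43 of 35555 features: 11 fibrillar chains, 8 basement membrane chains and 24 other chains. Of the 43 genes, 22 had at least 100 unique molecular identifiers (UMIs, counted RNA molecules) over all kept nuclei, and COL9A3 had 0.

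The 5 libraries were made from nuclei of snap-frozen vein of 2 male mongrel dogs. Grafted vein (n = 1, dog 1) was collected 24 h after it had been implanted as a bypass of the carotid artery. Distended vein (n = 2, dogs 1 and 2) had been filled under pressure with saline holding papaverine and bivalirudin during a harvest of about 30 minutes. Control vein (n = 2, dogs 1 and 2) was a segment of the same vein that had not been distended. Dog 1 thus gave Grafted 1, Distended 1 and Control 1, and dog 2 gave Distended 2 and Control 2. The graft had also been distended at harvest, its dog had been given systemic bivalirudin, and each library is 1 segment of 1 animal, so distension, flow, surgery and the 24 h cannot be told apart in it.

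Collagens are trimers of chains that share a repeated triplet with a glycine at regular steps. Fibrillar types I, III and V form the load-bearing fibres of the vein wall and are mostly made by fibroblasts and smooth muscle. Type IV networks, with types XV and XVIII, lie in the basement membrane under the endothelium. The other chains include the beaded filaments of type VI, the fibril-associated chains XII, XIV, XVI and XXI, and transmembrane collagens. Nuclear libraries count mostly unspliced or newly made transcripts, so the values are of nuclear RNA and not of the protein laid down in the wall.

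Depth differed widely between the libraries. The deposited tables held 11302558 UMIs for Grafted 1, 2667701 for Distended 1, 410604 for Distended 2, 2337436 for Control 1 and 1305862 for Control 2. After nuclei with under 100 detected genes were left out, 2705 nuclei remained in the graft, 2108 and 241 in Distended 1 and 2, and 765 and 1036 in Control 1 and 2. A group of 4 features without a gene name took 2.98% of all UMIs in the graft, 38.5% and 26.5% in the distended libraries and 70.4% and 61.4% in the control libraries. Levels within a library are therefore given in UPM, UMIs scaled to the same total as CPM outside those 4 features, unless these are said to be counted. Collagen group totals, marker sums, single clusters and smooth muscle-like nuclei are also compared between libraries in UPM, which has no TMM scaling. Other levels compared between libraries are counts scaled as TMM-normalised CPM. Nuclei were grouped by markers without any collagen feature. Endothelial-like nuclei held 38.8% of the graft, 28.7% and 71.4% of the distended and 83.9% and 49.1% of the control nuclei. Fibroblast-like nuclei held 29.5% of the graft, 57.1% and 20.7% of the distended and 6.27% and 37.0% of the control nuclei. Most fibroblast-like and endothelial-like nuclei of the graft lay in clusters that held hardly any control nuclei, and those clusters are named beside the results.

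Over the whole vein, collagen chains made up 0.284% of the UMIs of Grafted 1 (exact 95% interval 0.281 to 0.287). They made up 0.879% in Distended 1 and 0.176% in Distended 2, and 0.325% in Control 1 and 0.513% in Control 2. The graft lay between Distended 2 and both controls, and the 2 distended libraries stood on either side of them. With the 4 features counted in the total, the shares were 0.275% in the graft, 0.529% and 0.127% in Distended 1 and 2, and 0.0944% and 0.178% in Control 1 and 2, so the graft then lay above both controls. In tissue sums like these, fewer cells of a type and less RNA per cell cannot be told apart. Intervals on counts cover counting error only.

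The make-up of the collagen UMIs differed more than their total. Basement membrane chains gave 46.5% of the collagen UMIs of the graft, 12.2% and 42.0% in Distended 1 and 2, and 29.3% and 6.78% in Control 1 and 2. Fibrillar chains gave 42.2% in the graft, 61.5% and 41.5% in Distended 1 and 2, and 39.8% and 49.9% in Control 1 and 2. The remaining chains gave 11.3% in the graft, 26.3% and 16.5% in Distended 1 and 2, and 30.9% and 43.3% in Control 1 and 2. The graft had the lowest share of other chains and the highest share of basement membrane chains of the 5 libraries, with Distended 2 next to it in both. With 1 graft library these shares are given as values, with no test.

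**Figure D1:**
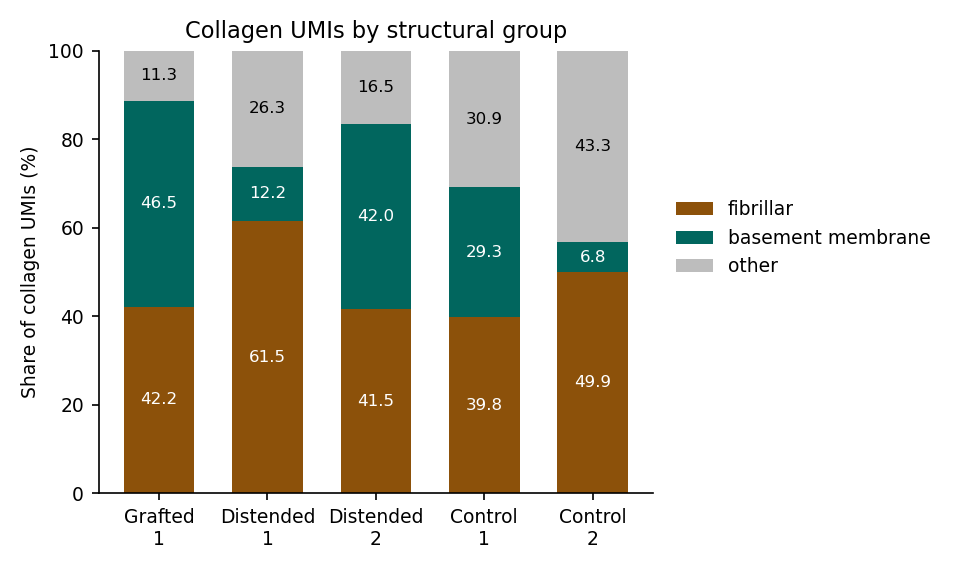
Share of collagen UMIs (%, y axis) from fibrillar, basement membrane and other chains in each library (x axis), over all kept nuclei. Basement membrane chains make up 46.5% in Grafted 1, against 6.78% in Control 2, and the other chains 11.3% against 43.3%.

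Among fibrillar chains, Distended 1 and Control 2 were mostly the high libraries in whole vein. COL1A1, the first chain of type I collagen, had 7.10 CPM in the graft, 294 and 14.4 CPM in Distended 1 and 2, and 9.87 and 119 CPM in Control 1 and 2. COL1A2, the second chain, had 52.9 CPM in the graft, 520.1 and 52.1 CPM in Distended 1 and 2, and 39.5 and 124 CPM in Control 1 and 2. COL3A1, which alone forms the type III fibres of distensible tissue, had 31.1 CPM in the graft, 1236 and 59.3 CPM in Distended 1 and 2, and 166 and 448 CPM in Control 1 and 2. Distended 1 was the highest library for all 3 genes, and for COL1A1 and COL3A1 the graft was the lowest. COL5A1 and COL5A2 encode chains of type V collagen, which starts fibril growth. COL5A1 had 42.3 CPM in the graft, 320.2 and 46.7 CPM in Distended 1 and 2, and 41.7 and 302 CPM in Control 1 and 2. COL5A2 had 406 CPM in the graft, 568 and 173 CPM in Distended 1 and 2, and 435 and 403 CPM in Control 1 and 2. The graft value of COL5A2 lay within the range of the other libraries. COL5A3, a further type V chain, had 4.70 CPM in the graft, 49.6 and 1.80 CPM in Distended 1 and 2, and 2.19 and 36.9 CPM in Control 1 and 2. COL27A1, a fibrillar chain of cartilage and other tissues, had 53.7 CPM in the graft, 23.5 and 16.2 CPM in Distended 1 and 2, and 15.3 and 20.1 CPM in Control 1 and 2. It was the only one of these 7 fibrillar genes with its highest whole vein level in the graft.

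The basement membrane chains followed another order. COL4A1, a chain of the ubiquitous type IV network, had 178 CPM in the graft, 142 and 68.3 CPM in Distended 1 and 2, and 65.8 and 23.5 CPM in Control 1 and 2. COL4A2, its partner, had 301 CPM in the graft, 236 and 137 CPM in Distended 1 and 2, and 182 and 53.7 CPM in Control 1 and 2. COL15A1, a collagen that links basement membrane to the fibres beside it, had 97.8 CPM in the graft, 95.8 and 44.9 CPM in Distended 1 and 2, and 17.5 and 21.8 CPM in Control 1 and 2. All 3 were highest in the graft, and COL15A1 and COL4A1 were higher in every grafted and distended library than in either control. COL18A1, whose end fragment is endostatin, had 62.7 CPM in the graft, 84.3 and 98.9 CPM in Distended 1 and 2, and 194 and 58.7 CPM in Control 1 and 2. COL4A5, a chain of a second type IV network, had 18.3 CPM in the graft, 30.6 and 18.0 CPM in Distended 1 and 2, and 53.7 and 26.9 CPM in Control 1 and 2. COL4A6, which pairs with it, had 4.33 CPM in the graft, 8.20 and 3.60 CPM in Distended 1 and 2, and 8.77 and 11.7 CPM in Control 1 and 2. For these 3 genes the graft lay below at least 1 control library.

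The other chains held the widest spreads. COL6A1, COL6A2 and COL6A3 form the type VI filaments around cells. COL6A1 had 8.39 CPM in the graft, 213 and 23.4 CPM in Distended 1 and 2, and 5.48 and 235 CPM in Control 1 and 2. COL6A2 had 13.6 CPM in the graft, 211 and 14.4 CPM in Distended 1 and 2, and 13.2 and 321 CPM in Control 1 and 2. COL6A3 had 57.7 CPM in the graft, 318 and 27.0 CPM in Distended 1 and 2, and 9.87 and 213 CPM in Control 1 and 2. For all 3 chains Distended 1 and Control 2 were the high libraries. COL28A1, a chain of the type VI-related type XXVIII, had 0.737 CPM in the graft, 133 and 3.60 CPM in Distended 1 and 2, and 2.19 and 117 CPM in Control 1 and 2. COL14A1, a fibril-associated chain that limits fibril width, had 15.5 CPM in the graft, 258 and 16.2 CPM in Distended 1 and 2, and 468 and 255 CPM in Control 1 and 2. COL12A1, a fibril-associated chain made under load and in repair, had 36.7 CPM in the graft, 75.3 and 32.4 CPM in Distended 1 and 2, and 7.67 and 47.0 CPM in Control 1 and 2. COL14A1 was lowest in the graft with Distended 2 next to it, and COL12A1 in the graft lay within the range of the other libraries. COL16A1, a further fibril-associated chain, had 8.25 CPM in the graft, 42.1 and 14.4 CPM in Distended 1 and 2, and 34 and 65.5 CPM in Control 1 and 2. COL21A1, of the same family, had 6.04 CPM in the graft, 21.6 and 10.8 CPM in Distended 1 and 2, and 3.29 and 5.04 CPM in Control 1 and 2. COL6A6, a type VI chain that can stand in for COL6A3, had 5.94 CPM in the graft, 1.86 and 0 CPM in Distended 1 and 2, and 0 and 1.68 CPM in Control 1 and 2. Of these 3, COL16A1 was lowest and COL6A6 highest in the graft.

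**Figure D2:**
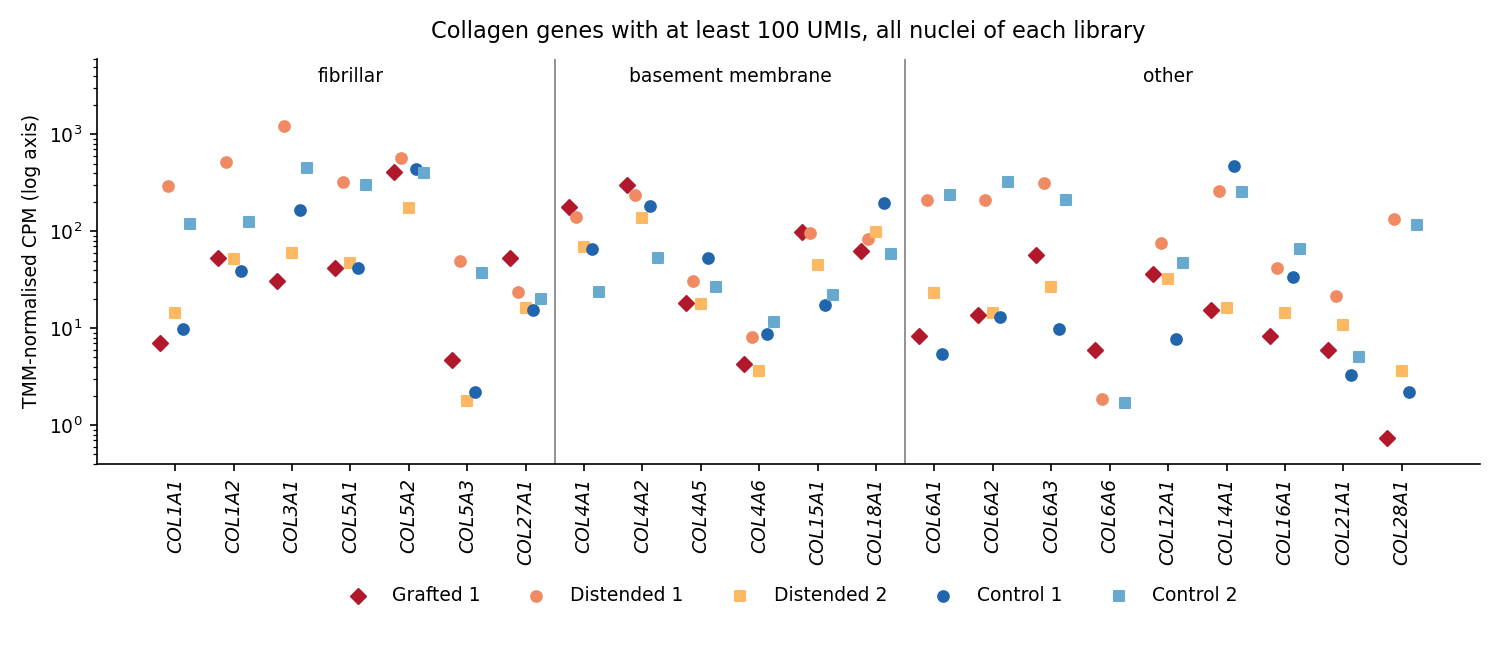
Level of the 22 collagen chain genes with at least 100 UMIs in whole vein (TMM-normalised CPM, log axis), each symbol 1 library. COL6A6 had 0 UMIs in Distended 2 and Control 1, so those 2 points are not drawn. COL3A1 ranges between 31.1 CPM in Grafted 1 and 1236 CPM in Distended 1, and COL15A1 has the 3 grafted and distended libraries above both controls.

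In whole vein no collagen passed the test in any comparison, as was the case for all genes. The lone graft library takes its spread in all tests from the control and distended libraries. Summed counts were tested with edgeR's quasi-likelihood test (two-sided) with Benjamini-Hochberg adjustment over 13170 genes, in which 0 genes (0%) passed an adjusted p of 0.05 in each comparison. At an unadjusted p under 0.05 in edgeR, 1 of 22 collagens passed for distended against control vein, where 1.41% of all genes did. For the graft 5 of 22 passed against control vein, where 8.82% of all genes did, and 3 of 22 against distended vein, where 5.5% did. COL15A1 was the gene below 0.05 for distended against control (log2 fold change 1.86, SE 0.71, edgeR adjusted p = 1). Against control vein the graft had COL15A1 (2.32) and COL4A1 (1.98) higher and COL16A1 (-2.58), COL14A1 (-4.54) and COL28A1 (-6.28) lower as log2 fold changes, all with an edgeR adjusted p of at least 0.559. Against distended vein it had COL3A1 (-4.39), COL1A1 (-4.46) and COL28A1 (-6.53) lower, with an edgeR adjusted p of 0.906. In fits without 1 control or distended library, the spread comes only from the pair left in the other group. Counts of collagens that passed in such fits are not given, and single p-values given below from them rest on that pair alone. By DESeq2, 2 collagens passed for the graft against control vein and 0 in both other comparisons. Of the 13170 genes, DESeq2 called 26 higher and 90 lower for the graft against control vein.

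By structure, 6 of 7 fibrillar and 6 of 9 other chains had negative log2 fold changes in the graft against control vein, with medians of -2.01 and -2.58, and 3 of 6 basement membrane chains did, with a median of 0.17. The median over all 22 was -1.08, beside 0.12 over all 13170 genes. These medians turned without Control 2, to 0.046 for fibrillar, 0.64 for other and -0.12 for basement membrane chains, and to 0.26 over the 24 collagens then tested, beside 0.28 over all genes. For distended against control vein the median of the 22 was 0.38, beside 0.08 over all genes, with 15 of 22 positive. It was -1.64 without Distended 1, -0.044 without Control 1, 1.08 without Distended 2 and 2.00 without Control 2. Counts of signs in these groups were not tested.

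Endothelial-like nuclei numbered 1049 in the graft, 604 and 172 in Distended 1 and 2, and 642 and 509 in Control 1 and 2, with a median of 3604 UMIs per nucleus in the graft, 670.5 and 564.5 in Distended 1 and 2, and 431.5 and 309 in Control 1 and 2. Basement membrane chains gave 1819 UPM in the graft, 1461 and 1136 in Distended 1 and 2, and 857 and 349 in Control 1 and 2. Fibrillar chains gave 769.6 UPM in the graft, 825 and 598 in Distended 1 and 2, and 1263 and 923 in Control 1 and 2. The other chains gave 188 UPM in the graft, 816 and 249 in Distended 1 and 2, and 852 and 923 in Control 1 and 2. Basement membrane chains were thus highest in the graft and lowest in the controls, also with the 4 dominant features counted (1782 in the graft, 784 and 722 in Distended 1 and 2, and 219 and 116 in Control 1 and 2). The order of the fibrillar chains turned with that scale. With the 4 features left out they were lower in the graft and both distended libraries than in either control, and with them counted they were highest in the graft, at 754 in the graft, 443 and 380.5 in Distended 1 and 2, and 322 and 308 in Control 1 and 2. The other chains were lowest in the graft with the 4 features left out, and lowest in Distended 2 with them counted (184 in the graft, 438 and 158 in Distended 1 and 2, and 217 and 308 in Control 1 and 2). Endothelial-like nuclei held 8074 of the 14391 basement membrane UMIs of the graft. They held 786 of 1611 and 169 of 206 in Distended 1 and 2, and 329 of 476 and 65 of 118 in Control 1 and 2. This was most in each library but Distended 1, where fibroblast-like nuclei held 616. Of COL4A1, endothelial-like nuclei gave 62.3% of the UMIs of the graft, 41.1% and 92.1% in Distended 1 and 2, and 73.3% in Control 1. Fibroblast-like nuclei gave 51.6% of them in Distended 1. In Control 2 the COL4A1 counts were 5 in endothelial-like and 9 in fibroblast-like nuclei. Of the 1049 endothelial-like graft nuclei, 922 lay in a cluster led by ITGA8 and SLC44A3 that held 0 control nuclei, whereas the control nuclei lay mainly in clusters led by ADAMTS18, by ATP2A3 and by ASB9. The endothelial marker list summed to 7236 UPM in the graft, 13293 and 7756 in Distended 1 and 2, and 12965 and 11954 in Control 1 and 2, with 15 of 15 markers counted in the graft and distended libraries and 14 of 15 in the controls, where KDR was at 0. The part of these differences in the collagen values was not tested.

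COL15A1 rose in endothelial-like nuclei of the graft. It had 144 CPM in the graft (1374 UMIs), 141 and 57.4 CPM in Distended 1 and 2 (144 and 20 UMIs), and 4.12 and 5.93 CPM in Control 1 and 2 (3 and 2 UMIs). Every grafted and distended library lay far above both controls. The means were 99.0 ± 58.9 CPM in distended and 5.02 ± 1.28 CPM in control vein (SD, n = 2 each). Against control vein the graft had a log2 fold change of 4.89 (SE 0.82, edgeR adjusted p = 0.0124), and COL15A1 was the 1 collagen of 19 tested that passed, where 1.92% of 10695 genes did. With the dog as a block, 5 of 19 collagens passed there, and COL15A1 had an edgeR adjusted p of 0.000485. With that block 406 of 10695 genes were called higher and 387 lower. COL15A1 also passed without Control 1, Control 2, Distended 1 or Distended 2 in turn. Those fits called more genes of all kinds than the main fit, and each rests on the spread of 1 pair of libraries. At a coarser clustering (Leiden resolution 0.4) COL15A1 no longer passed (4.29, edgeR adjusted p = 0.328), where 0 of 10871 genes did. For distended against control vein its log2 fold change was 4.39 (SE 0.77, edgeR adjusted p = 0.478), and 0 of 19 collagens and 0% of all genes passed. That comparison passed with the dog as a block (4.38, edgeR adjusted p = 0.00213) and by DESeq2 (adjusted p = 0.0334). It also passed without Control 2 (edgeR adjusted p = 0.0477), without Distended 1 (0.0488) and without Distended 2 (8.05e-06).

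In Distended 1 most COL15A1 UMIs of endothelial-like nuclei came from a small set of them. A cluster of endothelial-like nuclei led by LSAMP, NR5A2, IGFBP3 and DACH1 held 124 nuclei of the graft, 70 and 132 of Distended 1 and 2, and 6 and 3 of Control 1 and 2. That was 70 of 604 endothelial-like nuclei in Distended 1, but 132 of 172 in Distended 2. The cluster held 129 of the 144 COL15A1 UMIs of Distended 1 and 15 of the 20 of Distended 2, but 68 of the 1374 of the graft. Outside that cluster COL15A1 had 307 UPM in the graft (95% interval 291 to 324), 34.3 (19.2 to 56.6) in Distended 1, 73.9 from 5 UMIs in Distended 2, and 7.87 and 5.38 in Control 1 and 2, from 3 and 1 UMIs. Most COL15A1 UMIs of the graft thus lay outside this cluster, and most of both distended libraries inside it. When that cluster was left out, an alternative chosen after seeing the data, the log2 fold change was 5.23 for the graft against control (edgeR adjusted p = 1.14e-05) and 2.52 for distended against control (edgeR adjusted p = 1). For the graft against distended vein it moved to 2.70 (edgeR adjusted p = 0.0466), against 0.51 (edgeR adjusted p = 0.847) with all clusters.

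A larger share of endothelial-like nuclei held a COL15A1 UMI in the graft than in the other libraries, both as counted and at equal depth. A COL15A1 UMI was seen in 41.9% of endothelial-like nuclei of the graft, 7.95% and 8.72% in Distended 1 and 2, and 0.467% and 0.393% in Control 1 and 2. With each nucleus thinned to 300 UMIs the shares were 6.97% in the graft, 4.2% and 3.07% in Distended 1 and 2, and 0.428% and 0.382% in Control 1 and 2, with 2 nuclei of the graft, 56 and 9 of Distended 1 and 2, and 175 and 247 of Control 1 and 2 too shallow to be kept. As a background, neutrophil-like nuclei, white blood cells that should lack it, had a COL15A1 UMI in 19.2% of 454 graft nuclei, or 2.64% after thinning, at a median of 1362 UMIs against 3604 in endothelial-like nuclei. Their COL15A1 level was 159 UPM, against 309.5 in endothelial-like and 129.9 in fibroblast-like graft nuclei. Macrophage or monocyte-like graft nuclei gave 33.5 UPM (4.05 to 121) from 2 UMIs, and 0 of 40 held one after thinning. The fibroblast-like level thus lay below one white blood cell class and above the other. The name of the neutrophil-like class depended on the clustering. It held 10 of 10 neutrophil and 9 of 14 macrophage or monocyte markers, with 0 neutrophil markers among its leading 10 genes. At Leiden resolution 1.5, 252 of its 454 graft nuclei were named macrophage or monocyte-like and 199 neutrophil-like, and with collagen features in the clustering 450 were named T or NK-like.

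In endothelial-like nuclei the type IV chains COL4A1 and COL4A2, like COL15A1, were highest in the graft and lowest in the controls, and did not pass the adjusted threshold. In endothelial-like nuclei COL4A1 had 252 CPM in the graft, 152 and 100.4 CPM in Distended 1 and 2, and 60.4 and 14.8 CPM in Control 1 and 2. COL4A2 had 377 CPM in the graft, 268 and 175 CPM in Distended 1 and 2, and 140.1 and 41.5 CPM in Control 1 and 2. Over all endothelial-like nuclei both genes were highest in the graft, then in both distended libraries, with no overlap with the controls. Against control vein the graft had a log2 fold change of 2.67 for COL4A1 (SE 0.76, edgeR adjusted p = 0.0768) and 2.03 for COL4A2 (SE 0.77, adjusted p = 0.173). COL4A1 passed without Control 1 (4.10, edgeR adjusted p = 0.00892), without Distended 1 (0.0188) and without Distended 2 (0.00358), and COL4A2 without Distended 2 (0.0471). Without the NR5A2 cluster, COL4A1 had an edgeR adjusted p of 0.0242. In that cluster COL4A1 gave 1002 UPM in the graft, 900.2 in Distended 1 and 283 in Distended 2. Outside it COL4A1 gave 523 in the graft and 149 (Poisson interval 115 to 190) and 177 (91.7 to 310) in Distended 1 and 2. Control 1 and 2 gave 115 (83.9 to 155) and 26.9 (8.74 to 62.8). COL4A2 outside it gave 776 in the graft and 282 (234 to 336) and 414 (275 to 598) in Distended 1 and 2. Its values in Control 1 and 2 were 265 (216 to 322) and 75.4 (41.2 to 126). For both genes the distended intervals outside the cluster overlapped that of Control 1 and lay above that of Control 2. For distended against control vein COL4A1 had a log2 fold change of 1.69 (SE 0.67, edgeR adjusted p = 1). The COL4A1 and COL4A2 gene models overlap in the RefSeq annotation, and no source used here says whether counting used strand, so a share of either count may belong to the other.

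COL12A1 was nearly absent from control endothelial-like nuclei. It had 26.7 CPM in the graft (256 UMIs), 19.5 and 45.9 CPM in Distended 1 and 2 (20 and 16 UMIs), and 0 and 2.96 CPM in Control 1 and 2 (0 and 1 UMI). The ratio of pooled scaled counts was 28.5-fold higher in the graft than in control (95% counting interval 5.07 to 1130), and its fitted log2 fold change was 4.69 (edgeR adjusted p = 0.0618). It passed with the dog as a block (5.41, edgeR adjusted p = 0.00266), without Control 2 (0.0107), without Distended 1 (0.014) and without Distended 2 (0.00335). For distended against control vein the ratio was 28-fold higher (4.71 to 1134; edgeR adjusted p = 0.943), and that comparison passed without Distended 1 (0.0331). In the graft, 104 of the COL12A1 UMIs lay in the NR5A2 cluster at 560.4 UPM, against 35.7 outside it. Neutrophil-like graft nuclei stood at 62.3, against 57.7 over all endothelial-like graft nuclei, so only the level in the cluster lay above that background.

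In endothelial-like nuclei of the graft 5 collagens were lower and 4 higher than in control at an unadjusted p under 0.05, where 19% of all genes passed that limit. COL14A1 had 17.4 CPM in the graft, 322 and 14.3 CPM in Distended 1 and 2, and 402 and 379 CPM in Control 1 and 2. COL16A1 had 4.39 CPM in the graft, 31.3 and 8.61 CPM in Distended 1 and 2, and 30.2 and 62.2 CPM in Control 1 and 2. COL3A1 had 6.69 CPM in the graft, 51.8 and 20.1 CPM in Distended 1 and 2, and 109.9 and 29.6 CPM in Control 1 and 2. The graft was the lowest library for COL16A1 and COL3A1, and for COL14A1 it stood beside Distended 2. Not all of these levels stood above the background in white blood cells. In Distended 1 COL14A1 gave 613 UPM in endothelial-like and 78.8 in macrophage or monocyte-like nuclei, whereas COL3A1 gave 98.5 in endothelial-like and 434 in macrophage or monocyte-like nuclei. In the graft COL3A1 gave 14.4 in endothelial-like and 58.0 in neutrophil-like nuclei, COL16A1 9.46 in endothelial-like and 19.6 in neutrophil-like nuclei, and COL6A2 2.93 in endothelial-like and 25.6 in neutrophil-like nuclei. COL6A2 gave 39.0 in endothelial-like and 39.4 in macrophage or monocyte-like nuclei of Distended 1. In the graft and Distended 1 the COL3A1 and COL6A2 levels of endothelial-like nuclei thus did not stand above that background. In the graft COL16A1 did not either. In Control 1 endothelial-like nuclei gave 53.0% of the COL3A1 UMIs and fibroblast-like nuclei 7.95%. The part of background in these differences was not tested. The log2 fold changes against control vein were -4.48 for COL14A1 (SE 1.37, edgeR adjusted p = 0.0975), -3.34 for COL16A1 (SE 0.93, adjusted p = 0.0722) and -3.42 for COL3A1 (SE 0.93, adjusted p = 0.0695). With the dog as a block COL14A1 (edgeR adjusted p = 0.000675), COL16A1 (adjusted p = 0.0159) and COL3A1 (adjusted p = 0.00185) passed. COL14A1 passed without each of the 4 control and distended libraries in turn (edgeR adjusted p 0.000232 to 0.00593). COL16A1 passed without Control 1, Distended 1 or Distended 2 (0.00426 to 0.0166), and COL3A1 without Control 2, Distended 1 or Distended 2 (0.00155 to 0.0109). COL6A2 had 1.36 CPM in the graft, 20.5 and 5.74 CPM in Distended 1 and 2, and 5.49 and 29.6 CPM in Control 1 and 2 (-3.49, edgeR adjusted p = 0.133). COL18A1 had 41.7 CPM in the graft, 178 and 121 CPM in Distended 1 and 2, and 176 and 91.9 CPM in Control 1 and 2 (-1.69, edgeR adjusted p = 0.242). Of the COL18A1 UMIs of the graft, 62.7% came from unnamed nuclei, mostly a cluster led by RPL15 and NME1 in which it gave 252 UPM.

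For the graft against distended vein, 0 of 19 collagens passed in endothelial-like nuclei, where 0.552% of genes did, and 5 had an unadjusted p under 0.05, where 10.9% of genes did. All 5 were lower: COL14A1 (log2 fold change -3.30), COL6A2 (-3.37), COL3A1 (-2.49), COL16A1 (-2.29) and COL18A1 (-1.85). With the dog as a block 2 of 19 passed, where 173 of 10695 genes were called higher and 160 lower. Of distended against control vein, 3 collagens had an unadjusted p under 0.05 in edgeR, all higher, where 3.34% of genes did: COL15A1, COL12A1 and COL4A1. For distended against control vein the dog block gave 1 collagen past the adjusted threshold, where 4 of 10695 genes were called higher and 4 lower.

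**Figure D3:**
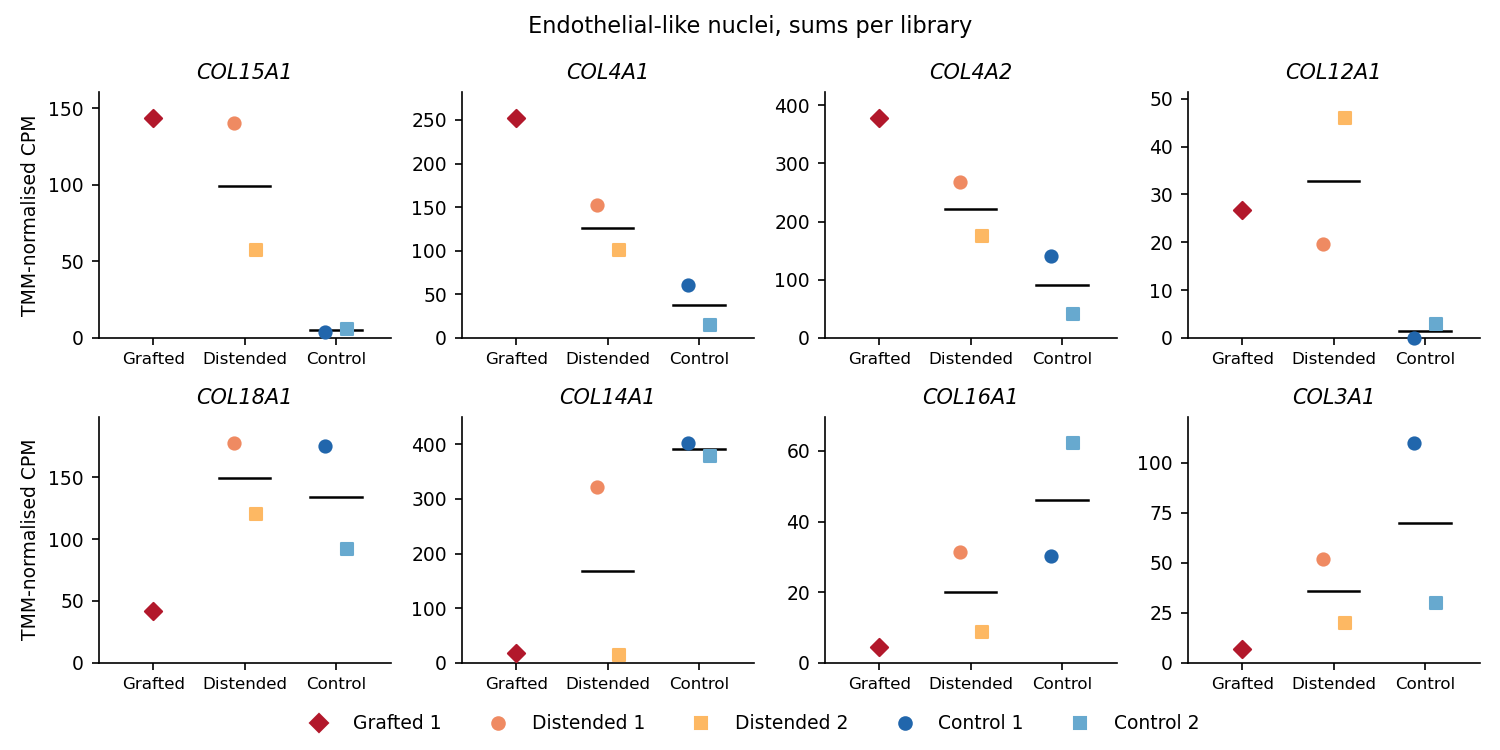
Level of 8 collagen chain genes in endothelial-like nuclei summed per library (y axis, TMM-normalised CPM), by group (x axis). Each symbol is 1 library and the line the mean of 2 libraries. COL15A1 stands at 144 CPM in the graft and at 4.12 and 5.93 CPM in the controls, whereas COL14A1 stands at 17.4 CPM in the graft and at 402 and 379 CPM in the controls.

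Fibroblast-like nuclei numbered 798 in the graft, 1204 and 50 in Distended 1 and 2, and 48 and 383 in Control 1 and 2, so Distended 2 and Control 1 rest on few nuclei. They gave 74.9% of the COL3A1 UMIs of the graft, 96.1% and 69.7% in Distended 1 and 2, and 7.95% and 94.0% in Control 1 and 2. In Control 1 endothelial-like nuclei gave 53.0% of them and 89.9% of the COL5A2 UMIs. Fibrillar chains gave 4147 UPM in the graft, 9779.9 and 3559 in Distended 1 and 2, and 4006 and 6196 in Control 1 and 2. The other chains gave 923 in the graft, 3759 and 1162 in Distended 1 and 2, and 1649.6 and 5085 in Control 1 and 2. Fibrillar totals of the graft thus lay within the range of the other libraries, and its total of other chains was the lowest. With the 4 dominant features counted the other chains gave 878 in the graft, 2424 and 839 in Distended 1 and 2, and 215 and 1730 in Control 1 and 2, so the graft was then above Distended 2 and Control 1. Of the graft nuclei 792 lay in a cluster led by FAM227B, GAP43 and PTX3, which also held 48 of the 50 nuclei of Distended 2. The 48 nuclei of Control 1 and 315 of Control 2 lay in a cluster led by SEMA3B and SCARA5, and Distended 1 had 573, 160 and 471 nuclei in clusters led by ITGA11, by SEMA3B and by C7. The fibroblast marker list summed to 2687 UPM in the graft, 13077 and 4285 in Distended 1 and 2, and 13432 and 13239.8 in Control 1 and 2. It was counted for 15 of 16 markers in the graft, where C7 was at 0, for 16 and 11 in Distended 1 and 2 and for 11 and 15 in Control 1 and 2. The lower marker sum of the graft moves with the lower collagens below, and its part in them was not tested.

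COL28A1 fell in fibroblast-like nuclei of the graft. It had 0.813 CPM in the graft (3 UMIs), 276 and 14.8 CPM in Distended 1 and 2 (350 UMIs and 1 UMI), and 82.8 and 359 CPM in Control 1 and 2 (2 and 63 UMIs). The graft was the lowest library, and nearly all counts of the other groups came from Distended 1 and Control 2. The ratio of pooled scaled counts was 401-fold lower in the graft than in control (95% counting interval 131 to 1993) and 323-fold lower than in distended vein (109.7 to 1575). The fitted log2 fold change was -8.03 against control (SE 1.83, edgeR adjusted p = 0.00477) and -7.42 against distended vein (SE 1.78, edgeR adjusted p = 0.00702). COL28A1 was the 1 collagen of 18 that passed in each comparison, where 2.07% of 7152 genes passed against control and 2.6% against distended vein. With the dog as a block neither call held (edgeR adjusted p = 0.183 against control and 0.0551 against distended vein), and 0 collagens passed in either. The call against control was lost without Control 2 (-6.32, edgeR adjusted p = 0.637), and that against distended vein without Distended 1 (-4.08, adjusted p = 1.00). Of 7152 genes, the dog block called 3 higher and 6 lower against control, and 143 higher and 29 lower against distended vein. In Distended 1, 322 of the 350 UMIs lay in the cluster led by ITGA11 and FNDC1 (801 UPM), a cluster with 0 graft nuclei and 0 of Distended 2 and Control 1. In Control 2 that cluster had 1333 UPM and the SEMA3B cluster 425.

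In fibroblast-like nuclei, type VI and fibril-associated chains had mostly lower values in the graft and did not pass. All 8 of the other chains tested had negative log2 fold changes against both control (median -3.62) and distended vein (median -3.07), groups that share the graft library. Without Control 2 the median against control was -0.65 over 9 chains, and without Distended 1 that against distended vein was 0.0053 over 5 chains. COL6A1 had 34.4 CPM in the graft, 426 and 134 CPM in Distended 1 and 2, and 41.4 and 730.0 CPM in Control 1 and 2. COL6A2 had 63.4 CPM in the graft, 409 and 59.4 CPM in Distended 1 and 2, and 82.8 and 964 CPM in Control 1 and 2. COL6A3 had 276 CPM in the graft, 641 and 178 CPM in Distended 1 and 2, and 82.8 and 667 CPM in Control 1 and 2. All 3 type VI chains were lower in the graft than in Distended 1 and Control 2, with COL6A1 lowest in the graft, COL6A2 above Distended 2, and COL6A3 above Distended 2 and Control 1. COL14A1 had 6.51 CPM in the graft, 252 and 29.7 CPM in Distended 1 and 2, and 82.8 and 91.2 CPM in Control 1 and 2. COL12A1 had 9.76 CPM in the graft, 136 and 0 CPM in Distended 1 and 2, and 124 and 154 CPM in Control 1 and 2. COL21A1 had 1.63 CPM in the graft, 35.5 and 44.5 CPM in Distended 1 and 2, and 41.4 and 17.1 CPM in Control 1 and 2, where Distended 2 and both controls had 1 to 3 UMIs each. The graft was lowest for COL14A1 and COL21A1, and for COL12A1 it lay above Distended 2, which was at 0. Against distended vein the log2 fold changes were -4.55 for COL14A1 (SE 1.42, edgeR adjusted p = 0.0515) and -4.45 for COL21A1 (SE 1.40, adjusted p = 0.0519). COL14A1 passed there without Control 1, Control 2 or Distended 2, and COL21A1 without Distended 2. Those fits called more genes of all kinds than the main fit, and each rests on the spread of 1 pair of libraries. The COL12A1 change against control was -3.86 (SE 1.39, edgeR adjusted p = 0.13). Against distended vein it was -3.07 (adjusted p = 0.234) and turned to 6.29 without Distended 1, when its comparison library had 0 UMIs.

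Fibrillar chains of fibroblast-like nuclei did not move as one. COL1A1 had 30.1 CPM in the graft, 591 and 104 CPM in Distended 1 and 2, and 82.8 and 371 CPM in Control 1 and 2. COL3A1 had 137 CPM in the graft, 2514 and 341 CPM in Distended 1 and 2, and 497 and 1431 CPM in Control 1 and 2. COL1A2 had 226 CPM in the graft, 1054 and 416 CPM in Distended 1 and 2, and 289.9 and 393 CPM in Control 1 and 2. All 3 were lowest in the graft. COL5A1 had 142 CPM in the graft, 633 and 267 CPM in Distended 1 and 2, and 207 and 776 CPM in Control 1 and 2. COL5A2 had 1154 CPM in the graft (4259 UMIs), 951 and 282 CPM in Distended 1 and 2, and 289.9 and 644 CPM in Control 1 and 2. COL27A1 had 228 CPM in the graft (841 UMIs), 19.7 and 44.5 CPM in Distended 1 and 2 (25 and 3 UMIs), and 41.4 and 17.1 CPM in Control 1 and 2 (1 and 3 UMIs). COL5A2 and COL27A1 were highest in the graft, the opposite of the type I and III chains. The log2 fold changes against control were 3.36 for COL27A1 (SE 1.36, edgeR adjusted p = 0.226) and 1.26 for COL5A2 (SE 1.24, adjusted p = 0.739). They were -3.04 for COL1A1 (SE 1.44, adjusted p = 0.359) and -2.84 for COL3A1 (SE 1.5, edgeR adjusted p = 0.441). At an unadjusted p under 0.05 in edgeR, 1 collagen was higher and 7 lower in each graft comparison, where 11.9% of genes passed against control and 12.2% against distended vein. For distended against control vein 0 of 18 passed either limit, where 0% of genes passed the adjusted and 1.26% the unadjusted one, and DESeq2 also called 0. The 18 tested collagens had a median log2 fold change of -1.86 against control, beside 0.29 over all 7152 genes, and of -1.70 against distended vein, beside 0.09. Without Control 2 the median against control was -0.18 over 20 collagens, beside 6.52 over all genes, and without Distended 1 that against distended vein was 0.0053 over 15 collagens, beside 0.22.

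A COL27A1 UMI was seen in 43.6% of fibroblast-like nuclei of the graft, 1.41% and 6.0% in Distended 1 and 2, and 2.08% and 0.783% in Control 1 and 2. After thinning to 300 UMIs it was seen in 13% in the graft, 0.452% and 6.82% (3 of 44 nuclei) in Distended 1 and 2, and 0.813% in Control 2, with 3 nuclei left in Control 1. Neutrophil-like graft nuclei had 15.2%, or 2.42% after thinning, so the graft share stood above that background at both depths. A COL3A1 UMI was seen in 21.1% of fibroblast-like nuclei of the graft, 76.4% and 22.0% in Distended 1 and 2, and 22.9% and 37.1% in Control 1 and 2. Thinned, COL3A1 was seen in 6.89% in the graft, 61.7% and 11.4% in Distended 1 and 2, and 45.5% in Control 2. For Control 1 no thinned share is given.

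**Figure D4:**
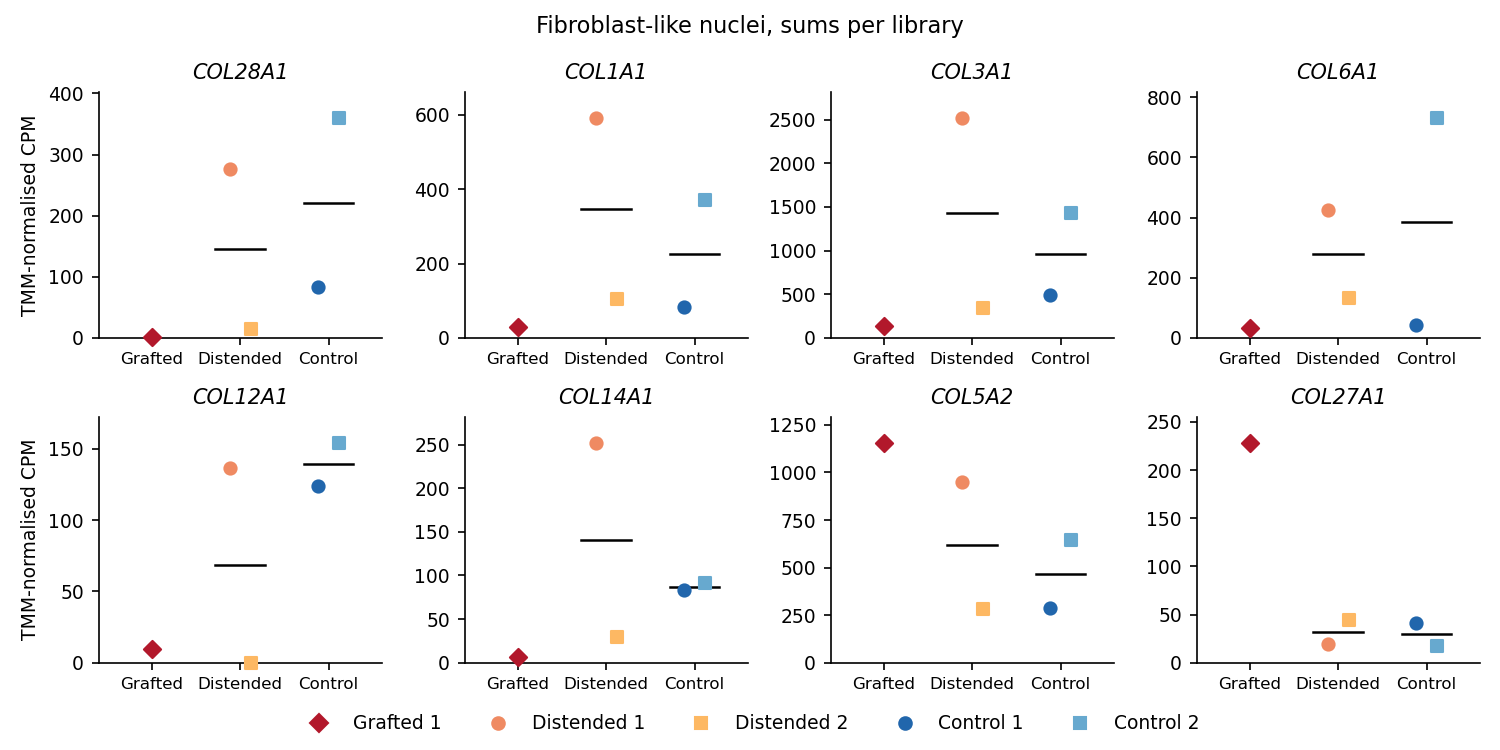
Level of 8 collagen chain genes in fibroblast-like nuclei summed per library (y axis, TMM-normalised CPM), by group (x axis). Each symbol is 1 library and the line the mean of 2 libraries. COL27A1 stands at 228 CPM in the graft and between 17.1 and 44.5 CPM in the other libraries, and COL28A1 at 0.813 CPM in the graft and 359 CPM in Control 2.

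The type I and type V chain pairs did not keep a fixed ratio across libraries, and the pairs of COL4A1 and COL6A1 also had intervals that lay apart. COL1A1 gave 11.8% of the type I UMIs of the graft (exact 95% interval 10.1 to 13.7), 36.1% (34.1 to 38.2) and 21.6% (9.83 to 38.2) in Distended 1 and 2, and 20.0% (9.58 to 34.6) and 49.0% (40.6 to 57.4) in Control 1 and 2. The graft interval lay below those of Distended 1 and Control 2 and overlapped those of Distended 2 and Control 1, which held 37 and 45 UMIs in all. In fibroblast-like nuclei alone the COL1A1 share was 11.7% in the graft, 35.9% and 20.0% in Distended 1 and 2, and 48.5% in Control 2. COL5A1 gave 10.9% of the UMIs of COL5A1 and COL5A2 in fibroblast-like nuclei of the graft (10.1 to 11.9), 39.9% and 48.6% in Distended 1 and 2, and 41.7% and 54.6% in Control 1 and 2. For that pair the graft interval lay below those of the other 4 libraries, the nearest being Control 1 at 15.2 to 72.3. In endothelial-like nuclei the COL5A1 share was 5.76% in the graft, 9.80% and 11.1% in Distended 1 and 2, and 5.80% and 19.3% in Control 1 and 2. COL4A1 gave 37.2% of the UMIs of the COL4A1 and COL4A2 pair in the graft, 37.5% and 33.3% in Distended 1 and 2, and 26.5% and 30.4% in Control 1 and 2. Its graft interval (36.3 to 38.1) lay above that of Control 1 (20.9 to 32.8) and overlapped those of the other libraries. COL6A1 gave 38.1% of the COL6A1 and COL6A2 UMIs of the graft, 50.3% and 61.9% in Distended 1 and 2, and 29.4% and 42.3% in Control 1 and 2. For this pair the graft interval (33.7 to 42.6) lay below that of Distended 1 (47.3 to 53.2) and overlapped those of the other libraries. COL4A5 gave 80.9% of the COL4A5 and COL4A6 UMIs of the graft, 78.8% and 83.3% in Distended 1 and 2, and 86.0% and 69.6% in Control 1 and 2, and its 5 intervals all overlapped. Across the 5 libraries the COL4A1 share ranged over 26.5% to 37.5%, and the COL1A1 share over 11.8% to 49.0%. These shares compare the same 2 genes across libraries and do not give the number of chains, since capture of each transcript may differ.

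Smooth muscle-like nuclei of the graft had many COL12A1 and COL5A2 UMIs and none of COL3A1. They numbered 37 in Grafted 1, 45 in Distended 1 and 41 in Control 1, with 1 and 18 in Distended 2 and Control 2, so each group is 1 library and there is no test. At Leiden resolution 1.5 the 37 graft nuclei formed a cluster of their own, apart from the 45 of Distended 1 and the 41 of Control 1, and they did so too when collagen features entered the clustering, so library and group cannot be told apart here. COL12A1 had 378 UMIs in the graft (5476 UPM, 95% Poisson interval 4938 to 6057), against 8 in Distended 1 (265, 114 to 522) and 4 in Control 1 (155, 42.2 to 396). COL5A2 had 265 UMIs in the graft (3839 UPM), 13 in Distended 1 (430.4) and 5 in Control 1 (193). COL3A1 had 0 UMIs in the graft, 49 in Distended 1 (1622 UPM) and 38 in Control 1 (1470.4). COL12A1 and COL5A2 were thus high and COL3A1 undetected in the graft nuclei of this class. The Poisson upper limit for COL3A1 in the graft was 53.4 UPM. COL4A1 had 1231 UPM in the graft, 397 in Distended 1 and 426 in Control 1. COL4A2 had 1681 in the graft, 960.0 in Distended 1 and 1703 in Control 1. A COL12A1 UMI was seen in 21 of 37 graft nuclei (56.8%, exact interval 39.5 to 72.9), 8.89% in Distended 1 and 4.88% in Control 1, and after thinning in 37.8% in the graft, 7.14% in Distended 1 and 5.00% in Control 1. These 37 nuclei held 47.5% of all COL12A1 UMIs of the graft. The smooth muscle marker list summed to 4897 UPM in the graft, 20095 in Distended 1 and 23100.1 in Control 1, with CASQ2 and KCNMB1 at 0 in all 3 and MYOCD at 0 in Control 1. The part of the lower marker sum in these values was not tested.

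Within the graft the same genes separated the cell classes. COL5A2 gave 2459.8 UPM in fibroblast-like nuclei, 659.6 in endothelial-like and 491 in neutrophil-like nuclei. COL27A1 gave 486 in fibroblast-like, 203 in smooth muscle-like, 130.5 in neutrophil-like and 27.0 in endothelial-like nuclei. COL6A3 gave 588 in fibroblast-like, 115 in neutrophil-like and 14.2 in endothelial-like nuclei. COL4A1 gave 543 in endothelial-like, 295 in fibroblast-like and 238 in neutrophil-like nuclei. The smooth muscle-like levels of COL5A2 and COL4A1 in the graft, given above, were higher than those of all these classes. Read against neutrophil-like nuclei, which should lack these collagens, fibroblast-like COL5A2, COL27A1 and COL6A3 and endothelial-like COL4A1 were higher, while endothelial-like COL27A1 and COL6A3 were lower. COL3A1 gave 292 in fibroblast-like, 58.0 in neutrophil-like and 14.4 in endothelial-like nuclei. In Distended 1 macrophage or monocyte-like nuclei had 434 UPM of COL3A1 and 355 of COL1A2, which gives the background of these genes there, against 4189 and 1756 in fibroblast-like nuclei.

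**Figure D5:**
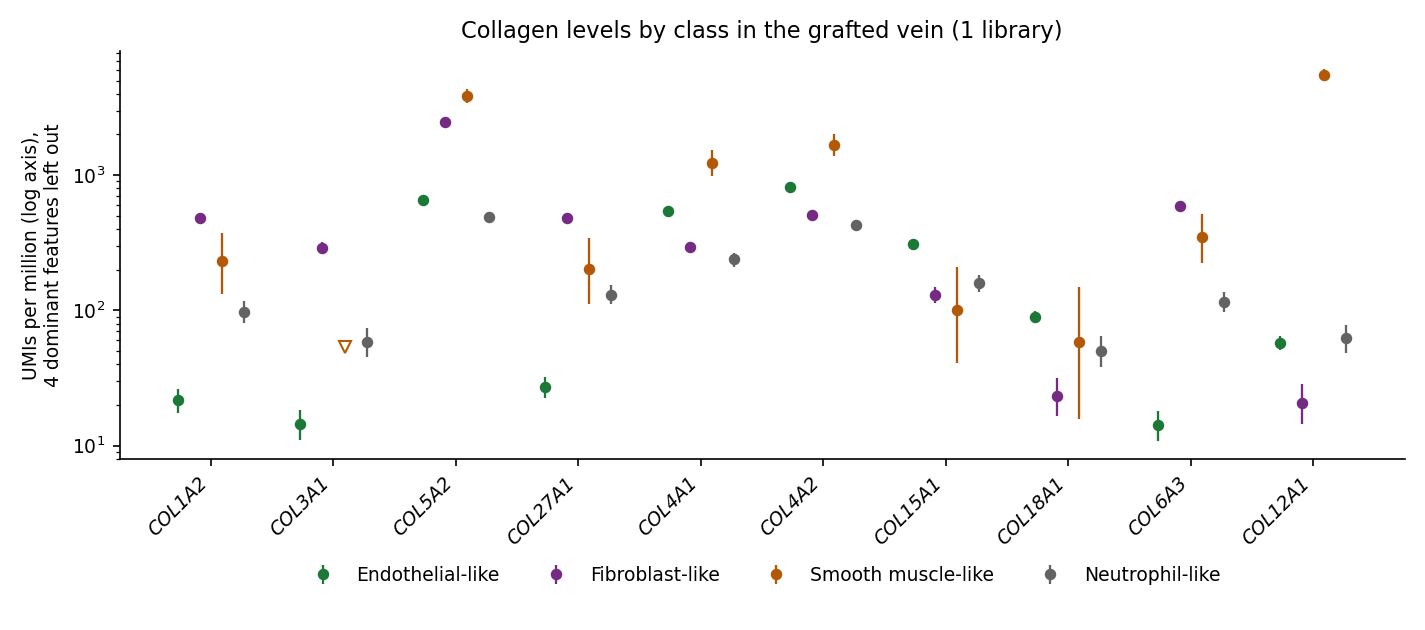
Level of collagen chain genes in 4 classes of graft nuclei (UPM, outside the 4 dominant features, log axis), with 95% Poisson intervals that cover counting error only. The open triangle marks the upper limit of a count of 0, for COL3A1 in smooth muscle-like nuclei. COL12A1 is at 5476 in smooth muscle-like nuclei and at 62.3 in neutrophil-like nuclei, the background class.

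Effects in the 2 main classes were compared within libraries, in a model of both classes with the library as a block. Of 21 collagens tested, 0, 1 and 2 differed for distended against control, graft against control and graft against distended vein, where 0.0167%, 0.134% and 0.217% of 11973 genes did. COL12A1 had an effect of the graft against control that was lower in fibroblast-like than in endothelial-like nuclei by -8.12 (log2, SE 1.5, edgeR adjusted p = 0.000259). Against distended vein, COL27A1 differed by 4.38 (SE 1.09, edgeR adjusted p = 0.0288) and COL21A1 by -5.44 (SE 1.1, edgeR adjusted p = 0.00213). The separate effects of COL12A1 against control were -3.86 in fibroblast-like and 4.69 in endothelial-like nuclei, of which neither passed alone, and its endothelial-like control counts were 0 and 1. Over all endothelial-like graft nuclei its level lay below that of neutrophil-like nuclei, the background class. The NR5A2 cluster held 40.6% of its endothelial-like graft UMIs. The part of background in this difference was not tested. Each difference was lost without 1 library: COL12A1 without Control 2 (-12.13, edgeR adjusted p = 0.123), COL21A1 without Distended 1 (-4.93, adjusted p = 1.00) and COL27A1 without Distended 1 (3.05, edgeR adjusted p = 1.00) or Distended 2 (4.78, 0.0821).

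Genes that process, bind or sense collagen were taken from 4 lists. In fibroblast-like nuclei 1 of 6 tested receptors passed in each graft comparison. ITGA11, the fibroblast integrin subunit that binds fibrillar collagen, had 1.08 CPM in the graft, 301 and 0 CPM in Distended 1 and 2, and 0 and 262 CPM in Control 1 and 2. It fell in the graft by 7.07 on the log2 scale against control (SE 1.72, edgeR adjusted p = 0.0104) and by 7.12 against distended vein (SE 1.71, adjusted p = 0.00706). Neither call held with the dog as a block (edgeR adjusted p = 0.375 against control and 0.0673 against distended vein), and each turned on 1 library. Without Control 2 the change against control was 3.58 (edgeR adjusted p = 0.9), and without Distended 1 that against distended vein was 3.26 (edgeR adjusted p = 1.00), each with 0 UMIs in the comparison library that remained. Like COL28A1, it was counted almost only in Distended 1 and Control 2, and it leads the cluster that held most COL28A1 UMIs. Of 9 tested fibril-associated proteoglycans and glycoproteins, 0 had a positive log2 fold change in either graft comparison, with medians of -2.34 against control and -2.75 against distended vein. Without Control 2 the first median was 0.48, with 6 of 11 positive, beside 6.52 over all genes, and without Distended 1 the second was -0.68. THBS2, a matricellular protein that acts on fibril assembly, passed against distended vein (-4.62, SE 1.37, edgeR adjusted p = 0.0371) and not against control (-4.32, adjusted p = 0.0757). With the dog as a block it did not pass (edgeR adjusted p = 0.381), and without Distended 1 it was not tested. THBS2 had 2.44 CPM in the graft, 96.2 and 0 CPM in Distended 1 and 2, and 0 and 68.4 CPM in Control 1 and 2.

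Collagen enzymes and chaperones were also tested. Of 14 genes of collagen modification and folding, 0 passed in either class, and 11 had positive log2 fold changes in fibroblast-like nuclei of the graft against control (median 0.61, and 7.98 without Control 2, beside 6.52 over all genes). FKBP10, a chaperone of the procollagen chains, had 72.6 CPM in the graft, 33.9 and 104 CPM in Distended 1 and 2, and 0 and 5.70 CPM in Control 1 and 2 (3.86, edgeR adjusted p = 0.279). Of 8 tested cleavage and cross-linking genes, 0 passed and 1 had a positive log2 fold change there (median -0.87, and 2.20 with 7 of 10 positive without Control 2). That gene was TLL1, a protease that trims procollagen ends, with 849 CPM in the graft, 24.5 and 787 CPM in Distended 1 and 2, and 41.4 and 51.3 CPM in Control 1 and 2 (4.13, edgeR adjusted p = 0.0796). The graft and Distended 2, whose nuclei shared a cluster, were the high libraries for TLL1. In endothelial-like nuclei 0 list members passed in any comparison, including 0 of 7 fibril-associated, 0 of 6 receptor, 0 of 6 cleavage and 0 of 14 modification genes. LOXL2, a cross-linking oxidase, had 14.1 CPM in the endothelial-like graft nuclei, 8.79 and 0 CPM in Distended 1 and 2, and 1.37 and 0 CPM in Control 1 and 2 (3.87, edgeR adjusted p = 0.206). LOXL1, of the same family, had 3.24 CPM in the graft, 13.7 and 8.61 CPM in Distended 1 and 2, and 24.7 and 14.8 CPM in Control 1 and 2 (-2.64, edgeR adjusted p = 0.139). In whole vein 0 members of the lists passed.

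The remaining 21 genes had fewer than 100 UMIs in all and are given as counts. COL17A1, a transmembrane collagen of epithelial anchoring, had 56 UMIs in the graft, 2 and 0 in Distended 1 and 2, and 1 and 0 in Control 1 and 2. COL10A1, the network collagen of hypertrophic cartilage, had 31 UMIs in the graft and 0 in the other 4 libraries. COL11A2 had 46 in the graft, 8 and 1 in Distended 1 and 2, and 0 and 2 in Control 1 and 2. The graft was the deepest library, so these counts alone show no difference between groups. The other 18 genes had 0 to 36 UMIs in all, and COL23A1 was the highest of them.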

How the data were processed

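Single-nucleus libraries (10x Genomics 3' v3.1) had been counted with Cell Ranger 7.0.0, per the submitters' processing notes. No source used here names the build. The deposited values are raw UMI counts per feature and nucleus, not normalised by the authors. A further 24 features that name no gene were left out (0.588% to 11.5% of UMIs per library).

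Nuclei with at least 100 genes were kept (6855 of 7391 barcodes; 5 barcode sequences occurred in 2 libraries). They were clustered with scanpy 1.11.5 without collagen features (10000 counts per nucleus, 2000 variable genes, 20 components, 15 neighbours, Leiden resolution 0.8) and named from marker lists. Scrublet marked 42 nuclei (0.613%), which were kept.

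Counts were summed per library and class and tested with edgeR 4.0.16 (TMM, filterByExpr, quasi-likelihood test, two-sided, Benjamini-Hochberg over all genes tested, 0.05), with DESeq2 1.42.0 as an alternative. The main fits have 2 residual degrees of freedom. Fits with the dog as a block and fits without 1 library have only 1. Without a control or distended library the spread comes from 1 pair of libraries, so smaller p-values there are no firmer than those of the main fits. The method was also run on simulated counts with the same dispersion for every gene, which cannot show how it behaves on the spread of these libraries. Levels in UPM leave out the 4 dominant features unless these are said to be counted, a scale chosen after seeing the data. Dog numbers name the same animals and so pair the libraries; same-dog deviations correlated at -0.258 in whole vein, 0.0305 in endothelial-like and 0.0124 in fibroblast-like sums. With 1 segment per animal and group, p-values of the main fits measure the spread between the 2 control libraries and between the 2 distended libraries. The lone graft library adds nothing to that spread, so variation between grafts is in none of the p-values.

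Per-library values are given for collagens with at least 100 UMIs and for any that passed; of the other lists, the members called and those with the 3 largest log2 fold changes may be named. COL17A1, COL10A1 and COL11A2 were named after their values were seen. The members and lists were chosen with earlier results of these data known. Gene names were matched to RefSeq (43 of 43).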

Additional observations from a re-analysis of the deposited data

Results flagged for a closer look

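For 3 collagens the effect of the graft differed between fibroblast-like and endothelial-like nuclei, in edgeR's test of the difference itself with the library as a block. The differences are fibroblast-like minus endothelial-like log2 fold changes. COL12A1 differed by -8.12 for the graft against control vein (edgeR adjusted p = 0.000259). Its level in endothelial-like graft nuclei lay below that of neutrophil-like nuclei, and 40.6% of its UMIs in them lay in the NR5A2 cluster. The part of background in this difference was not tested. COL27A1 differed by 4.38 (edgeR adjusted p = 0.0288) and COL21A1 by -5.44 (edgeR adjusted p = 0.00213) for the graft against distended vein. For COL21A1 the fibroblast-like counts were 6 UMIs in the graft, 45 and 3 in Distended 1 and 2, and 1 and 3 in Control 1 and 2, and the endothelial-like counts were 113 in the graft, 5 and 3 in Distended 1 and 2, and 2 and 0 in Control 1 and 2. The COL21A1 and COL27A1 differences were lost without Distended 1 (edgeR adjusted p = 1.00 each), that of COL27A1 also without Distended 2 (0.0821), and that of COL12A1 without Control 2 (0.123).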

How the results depend on the processing

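Counts of collagens past the edgeR threshold moved with the processing. Of distended against control in endothelial-like nuclei, 0 collagens passed, against 1 by DESeq2, 2 with no filter on low counts and 1 with the dog as a replicate block. Genes called higher and lower there were 0 of 10695, against 1 and 2 of 10695 by DESeq2. They were 14 and 10 of 23196 with no filter and 4 and 4 of 10695 with the block. For the graft against control there, 1 passed, against 3 by DESeq2, 0 at Leiden resolution 0.4, 5 with doublets removed, 6 with no filter, 6 with at least 200 genes per nucleus, 5 with the dog block, 6 without the NR5A2 cluster and 4 to 8 with a library left out. For the graft against distended vein there, 0 passed, against 2 with the dog block and 1 without the NR5A2 cluster. Genes called higher and lower were 54 and 5 of 10695, against 173 and 160 of 10695 and 143 and 108 of 10149 in those 2 settings. In fibroblast-like nuclei 1 passed for the graft against control, against 0 with no filter and 0 with the dog block. Genes called higher and lower were 26 and 122 of 7152, against 5 and 18 of 21942 with no filter and 3 and 6 of 7152 with the block. Against distended vein 1 passed, against 2 at resolution 0.4, 2 when collagen features entered the clustering, 2 with at least 200 genes and 0 with the dog block. Genes called higher and lower were 66 and 120 of 7152, against 68 and 130 of 7172 at resolution 0.4. They were 74 and 130 of 7323 with collagen features, 190 and 239 of 10152 with at least 200 genes, and 143 and 29 of 7152 with the block. In whole vein 0 passed in each comparison, against 2 by DESeq2 and 1 with no filter for the graft against control and 1 with no filter for the graft against distended vein. Genes called higher and lower against control were 26 and 90 of 13170 by DESeq2 and 216 and 71 of 26765 with no filter. Against distended vein they were 101 and 43 of 26765 with no filter. Calls also moved with a library left out, but those fits rest on 1 pair of libraries and their counts are not given. For the collagens with repeated fits, ITGA11 and THBS2, 4 log2 fold changes changed sign, all in fibroblast-like nuclei when the comparison group was left with 0 UMIs. COL12A1 against distended vein, -3.07, ran between -3.78 and 6.29 with a library left out, ITGA11 against control between -7.71 and 3.58 and against distended vein between -7.98 and 3.26, and THBS2 against control between -4.67 and 4.68, the highest values being without Distended 1 or Control 2. Medians over the tested collagens turned too: with a library left out they ran between -1.23 and 0.26 for the graft against control, -2.0 and 0.049 for the graft against distended vein and -1.64 and 2.00 for distended against control in whole vein. The cause of the other moves was not tested.

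The dog block changed no other count of collagens past the threshold. In whole vein a block with the distended dog numbers crossed gave 0 collagens, and 4 higher and 5 lower genes for distended against control, 74 higher and 64 lower for the graft against control and 19 higher and 1 lower for the graft against distended vein.

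With the 4 dominant features counted, collagen shares were 0.275% in the graft, 0.529% and 0.127% in Distended 1 and 2, and 0.0944% and 0.178% in Control 1 and 2, so the graft then lay above both controls. Fibrillar chains in fibroblast-like nuclei then gave 3946 UPM in the graft, 6305 and 2568 in Distended 1 and 2, and 521 and 2107 in Control 1 and 2, and 3909.5 in the graft when collagen features entered the clustering without those features counted. Basement membrane chains in endothelial-like nuclei gave 784 and 722 in Distended 1 and 2 and 219 and 116 in Control 1 and 2.

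The graft is 1 library, Distended 2 and Control 1 hold 50 and 48 fibroblast-like nuclei, and depth per nucleus was highest in the graft. Tests in smooth muscle-like nuclei were not run, since 1 library per group held enough nuclei.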

Other observations

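COL6A6 was counted 66 times in endothelial-like nuclei of the graft and 0 times in those of all 4 other libraries. Against a floor of 3 counts over each group it was at least 2.45-fold higher in the graft than in control and at least 3.15-fold higher than in distended vein. Of the 129 COL6A6 UMIs of the graft, 51.2% lay in endothelial-like, 24.8% in fibroblast-like, 12.4% in neutrophil-like and 3.88% in smooth muscle-like nuclei. Neutrophil-like nuclei, read above as background, held 1172678 UMIs outside the 4 dominant features, against 4438752 in endothelial-like nuclei. COL6A6 was thus not particular to endothelial-like nuclei of the graft. These values were chosen after they were seen and were not tested, nor was the part of background in them.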
